A study of Mus musculus with 12 samples.

Results

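The regions described here are the open chromatin regions of 8 genes that encode early growth response factors, their co-repressor, Krüppel-like factors and other rapidly induced regulators, namely Egr1, Egr2, Nab2, Klf2, Klf4, Klf6, Nr4a1 and Id2. A region was taken when it overlapped the body of 1 of these genes extended by 20 kb on each side (GENCODE M21 basic annotation, mouse genome GRCm38), which gave 76 of the 121336 regions in the count table. Nr4a1 held 21 of them, Nab2 12, Egr1 and Klf6 11 each, Id2 6, and Egr2, Klf2 and Klf4 5 each. For 53 of the 76 the nearest start site of any gene was that of the named member, while most regions of the gene-dense Nab2 window lay nearer to a neighbour such as Nemp1 or Stat6.

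Accessibility was measured by ATAC-seq (OmniATAC) in 12 libraries, 3 for each of 4 groups. LSK are lineage-negative bone marrow cells positive for Sca-1 and c-Kit, a mixture of stem cells and early progenitors, and GMP are the c-Kit-positive, Sca-1-negative, CD16/32-positive granulocyte-monocyte progenitors. WT-LSK and WT-GMP came from wild-type mice, and URE-LSK and URE-GMP from mice lacking the upstream regulatory element (URE) of Spi1, the gene of the transcription factor PU.1. The animals were young adult littermates on a C57BL/6 background and no group was treated. The deletion is in the germline, so every cell of a URE mouse carries it, including the cells from which LSK and GMP arise.

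Egr1 and Egr2 are zinc finger factors whose genes are switched on rapidly by growth factors, largely through serum response factor bound to CArG boxes, and Nab2 binds Egr proteins and turns them into repressors. In myeloid progenitors rich in PU.1, Egr and Nab proteins hold down neutrophil genes and favour the monocyte and macrophage fate. Klf4 promotes monocyte differentiation, Klf2 is linked to quiescence, Nr4a1 is an orphan nuclear receptor needed by patrolling monocytes, and Id2 blocks E proteins because it dimerises with them without binding DNA.

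The recognition sequence of PU.1, searched as GAGGAAGT on both strands, occurred in 12706 of all regions (10.5%) and in 6 of the 76. Stretches of 120 bases around it are shown for the 4 of these 6 that belong to Klf6, Nr4a1, Klf2 and Id2 and lie outside promoters. The first 3 were less accessible in URE-LSK by more than the 2-fold threshold used below, and the Id2 region was not. They are written 5′ to 3′ on the plus strand of GRCm38, with the motif in capitals, which reads ACTTCCTC where it lies on the minus strand.

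Klf6, 26.6 kb downstream, chr13:5888714-5888833: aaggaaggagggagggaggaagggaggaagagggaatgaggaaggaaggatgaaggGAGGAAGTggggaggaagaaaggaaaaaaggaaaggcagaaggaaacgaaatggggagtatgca

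Nr4a1, 1.3 kb upstream, chr15:101252797-101252916: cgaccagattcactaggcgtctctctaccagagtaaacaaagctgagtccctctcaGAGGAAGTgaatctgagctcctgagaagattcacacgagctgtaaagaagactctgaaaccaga

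Klf2, 1.1 kb upstream, chr8:72317766-72317885: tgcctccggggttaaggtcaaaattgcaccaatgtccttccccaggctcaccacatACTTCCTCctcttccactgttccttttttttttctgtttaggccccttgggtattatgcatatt

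Id2, 3.6 kb upstream, chr12:25101329-25101448: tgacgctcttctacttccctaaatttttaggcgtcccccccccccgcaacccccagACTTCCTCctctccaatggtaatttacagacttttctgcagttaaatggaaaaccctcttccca

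The Klf6 stretch lies in an intron of the neighbouring gene Gm47507, and 92.5% of its bases are purines. Shorter letters of the same kind, GAGGAA on either strand, were searched after the values had been seen. They occurred in 46.9% of all regions and in 44 of the 76, among them 11 of the 14 called lower in URE in either cell type. They are in capitals below for a Klf2 and an Nr4a1 region that were less accessible in URE-LSK and lack the longer motif.

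Klf2, 3.1 kb downstream, chr8:72322540-72322659: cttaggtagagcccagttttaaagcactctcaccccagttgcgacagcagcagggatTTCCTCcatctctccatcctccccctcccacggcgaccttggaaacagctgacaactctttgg

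Nr4a1, 1.8 kb downstream, chr15:101256122-101256241: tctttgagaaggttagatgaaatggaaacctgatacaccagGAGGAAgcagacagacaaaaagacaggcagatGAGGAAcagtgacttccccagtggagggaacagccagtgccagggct

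Totals ranged from 23072701 to 62204826 counts per library, and values are given as CPM, the counts of a region scaled to a common library size by TMM. The deleted Spi1 element (chr2:91082790-91083700) read 36.0 to 46.2 CPM in the WT libraries and at most 6 counts in any URE library, as labelled. Promoter regions of a list of 6 GMP markers, all found, summed to 28.8 to 35.2 CPM in WT-LSK and 201.6 to 259.1 in WT-GMP. Those of the LSK list, with 5 of 6 found, summed to 204.3 to 212.5 and 152.2 to 174.8 CPM. In URE-GMP the GMP list summed to 332.5 to 347.1 CPM, wholly above WT-GMP, while its URE-LSK range enclosed that of WT-LSK. Of its genes only Ctsg was called between genotypes, higher in URE in LSK (log2 fold change 1.93) and in GMP (1.12). The LSK list summed to at least 222.2 CPM in URE-LSK, above WT-LSK, and its URE-GMP range lay within that of WT-GMP. None of its genes was called between genotypes. Some markers of mature cells also moved with genotype. The monocyte list (Csf1r, Ccr2 and Ly86, 3 of 3 found) summed to 4.38 to 5.67 CPM in WT-LSK against 0.381 to 0.769 in URE-LSK, and to 19.5 to 29.8 CPM in WT-GMP against 7.07 to 14.5 in URE-GMP. Csf1r and Ly86 were called lower in URE in both cell types. Ccr2 was not called (log2 fold change 0.05 in LSK and -0.04 in GMP). The mature neutrophil list (Ltf, Camp and Ngp, 3 of 3 found) ranged over 7.58 to 8.85 CPM in WT-LSK against 5.64 to 6.11 in URE-LSK, and 9.86 to 16.7 CPM in WT-GMP against 39.2 to 46.1 in URE-GMP, with Camp and Ngp called higher in URE in both cell types and Ltf not called. The megakaryocyte list (3 of 3 found) had 56.2 to 77.2 CPM in WT-LSK, 82.2 to 87.3 in URE-LSK, 26.6 to 46.4 in WT-GMP and 18.9 to 30.0 in URE-GMP. Of the mast cell and basophil list only Cpa3 was found, with 5.09 to 7.84 CPM in WT-LSK and 11.5 to 15.2 in URE-LSK, and of the T cell list only Lck, with 1.09 to 2.12 CPM in WT-GMP and 3.56 to 5.72 in URE-GMP. The part of these shifts in the results that follow was not tested. In bulk libraries, fewer cells with an open region and less opening per cell cannot be told apart.

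The first question was how loss of the Spi1 element changed accessibility around these genes in stem and early progenitor cells. Calls required an edgeR quasi-likelihood adjusted p (Benjamini-Hochberg over all 121336 regions) under 0.05 together with a log2 fold change over 1 in size. In LSK, 14 of the 76 regions (18.4%) were lower in URE and 3 (3.95%) were higher. Of all regions 23.9% were lower and 13.6% higher, so the members' shares lay below the background in both directions. The lower regions belonged to Nr4a1 (6), Egr1 (3), Klf2 (2), Klf6 (2) and Nab2 (1), and the higher ones to Klf2, Klf6 and Nab2 (1 each). In 16 of these 17 (94.1%) the URE-LSK libraries did not overlap those of WT-LSK, as in 97.8% of all regions called in LSK. The split depended on the scaling, with 12 lower and 9 higher when loess offsets removed the dependence of the change on abundance, and 12 and 7 with offsets for GC content. Of the calls over all regions in LSK, 63.8% were lower, against 47.5% with loess offsets and 52.2% with GC content offsets. The median log2 fold change was 0.27 over the 76 regions and 0.14 over all regions.

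In GMP, 9 of the 76 regions (11.8%) were lower in URE and 5 (6.58%) were higher, where the whole table had 24.1% lower and 15.6% higher. The lower regions belonged to Nr4a1 (4), Egr1 (2), Klf6 (2) and Nab2 (1), and the higher ones to Klf6 (3), Egr1 (1) and Nab2 (1). With loess offsets the split was 5 lower and 8 higher, and with GC content offsets 7 and 6. Of the calls over all regions in GMP, 60.6% were lower, against 45.5% with loess offsets and 54.9% with GC content offsets. The LSK and GMP comparisons share no library. The 9 regions called lower in GMP were among the 14 of LSK (64.3% of the LSK list), where over all regions 77.9% of those lower in GMP were lower in LSK and 78.3% of those lower in LSK were lower in GMP. Called higher in both were 2 regions, 66.7% of the LSK list and 40% of the GMP list, against 62.1% and 54.0% over all regions. None of the 5 regions of Egr2, the 5 of Klf4 and the 6 of Id2 was called in either cell type by edgeR as described or by DESeq2, but for each gene 1 region was called under another setting, given with that gene. At an unadjusted p under 0.05, edgeR gave Egr2 3 higher regions in LSK and 1 lower in GMP, Klf4 2 higher in LSK and 1 higher in GMP, and Id2 4 higher in LSK with 1 higher and 1 lower in GMP.

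**Figure D1:**
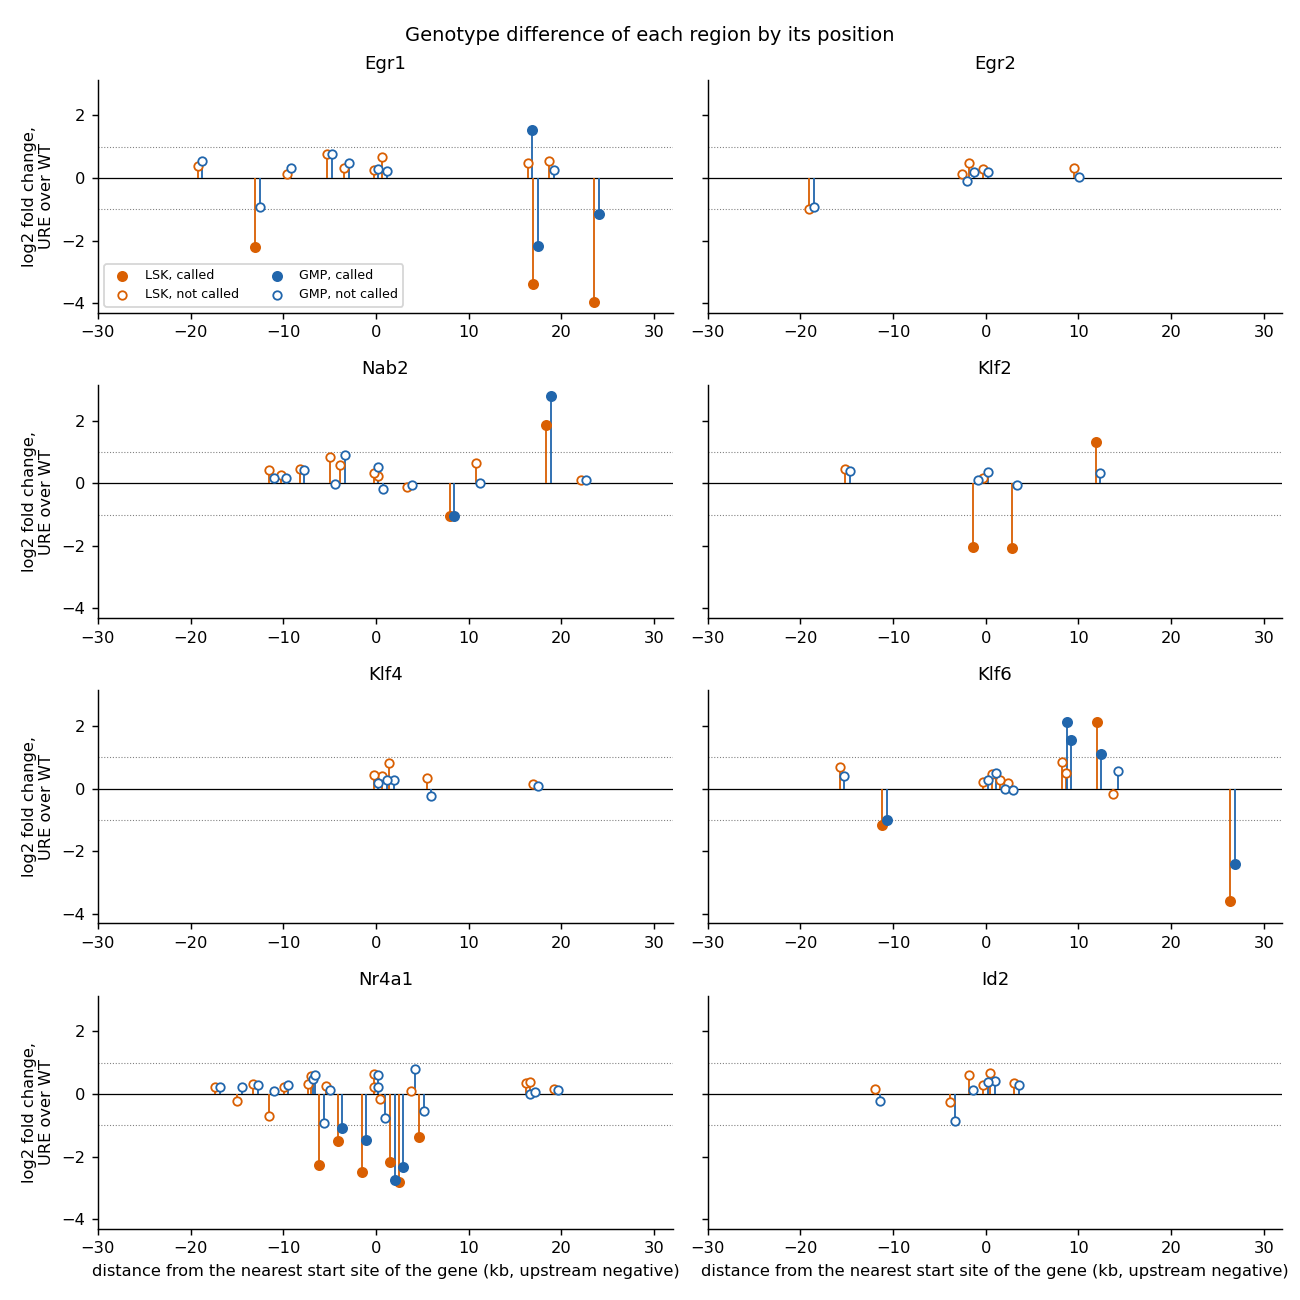
Log2 fold change of URE over WT for each of the 76 regions (vertical axis) against the distance in kb from the nearest start site of the member gene (horizontal axis, upstream negative), in LSK (orange) and GMP (blue), with filled points for called regions and dotted lines at 1 and -1. At the start sites the points stay near 0, and the called regions lie away from them, among them 6 lower regions of Nr4a1 and the lowered regions 26.6 kb downstream of Klf6 and 17.2 and 23.8 kb downstream of Egr1.

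None of the 15 regions within 500 bp of a start site of any gene was called in LSK or in GMP by edgeR or DESeq2. Of all such promoter regions, 10.1% were called in LSK and 11.6% in GMP, in either direction. Of the 61 member regions outside promoters, 17 (27.9%) were called in LSK and 14 (23.0%) in GMP, against 42.3% and 44.6% of all regions outside promoters. Without the fold threshold, edgeR gave 10 of the 15 promoter regions as higher in LSK and 7 in GMP (10 and 8 at an unadjusted p under 0.05) and none as lower, beside 39.3% and 35.4% of all promoter regions that were higher. Their median log2 fold changes were 0.28 in LSK and 0.21 in GMP, and those of all promoter regions 0.22 and 0.16, while several of the single promoters below changed sign with loess offsets.

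Egr1, an immediate early gene, had a promoter region that was slightly higher in URE. This region (chr18:34859718-34861812) read 126.4, 137.5 and 123.9 CPM in WT-LSK against 165.8, 163.4 and 137.0 for URE-LSK. WT-GMP libraries had 120.0, 115.1 and 123.5 CPM, and their URE counterparts 143.1, 151.7 and 143.3. The lowest URE-LSK library lay among the WT-LSK values, and in GMP the genotypes did not overlap. The log2 fold changes were 0.27 ± 0.07 (SE) in LSK and 0.29 ± 0.07 in GMP (edgeR adjusted p = 0.00576 and 0.00297), but -0.082 and -0.0046 with loess offsets, so the sign of this small difference depended on the scaling. The region holds 5 CArG boxes, a motif found in 1.92% of all regions and in 4 of the 76.

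Away from its promoter Egr1 had a pair of weak regions that were nearly closed in URE-LSK. The region 23.8 kb downstream (chr18:34884962-34885210) gave 3.15, 2.49 and 2.8 CPM in WT-LSK and 0.0714, 0.279 and 0.192 in URE-LSK, the smallest from 3 counts. In GMP the WT libraries gave 3.68, 2.71 and 2.07 CPM and the URE libraries 1.33, 1.67 and 0.751. The genotypes were apart in both cell types, with the wider gap in LSK. The log2 fold change was -3.97 ± 0.41 in LSK and -1.14 ± 0.32 in GMP (edgeR adjusted p = 6.83e-07 and 0.00596), a difference of 2.82 ± 0.53 between the cell types (interaction of genotype and cell type, adjusted p = 0.00202). The GMP call was lost in 5 of 21 alternatives, among them with loess offsets (-0.56) or GC content offsets (-0.97), and without URE-GMP replicate 3 (-0.89) or without WT-GMP replicate 1 (-0.96).

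The region 17.2 kb downstream of Egr1 (chr18:34878413-34878719) read 1.78, 1.88 and 1.93 CPM in the WT-LSK libraries and 0.119, 0.112 and 0.278 in those of URE-LSK, without overlap. It fell by 3.40 ± 0.39 on the log2 scale in LSK and by 2.16 ± 0.38 in GMP (edgeR adjusted p = 1.87e-06 and 0.000145). With loess offsets these were -2.14 and -0.88, and the GMP call was lost. A weak region 16.6 kb downstream (chr18:34877829-34878040) went the other way. It rose in GMP from 0.241 ± 0.11 to 0.688 ± 0.1 CPM, without overlap (log2 fold change 1.53 ± 0.37, edgeR adjusted p = 0.002). This call was lost with glmTreat. In LSK the value of 0.48 ± 0.29 did not pass the test (edgeR adjusted p = 0.172), but with loess offsets it was called higher (1.63). A region 12.8 kb upstream, in an untranslated exon of the neighbouring gene Reep2 (chr18:34846802-34847058), fell by 2.19 ± 0.40 in LSK (edgeR adjusted p = 0.000209), and its GMP value of -0.92 ± 0.44 did not pass the test (adjusted p = 0.082) and turned to 0.37 with loess offsets. The large region 3.2 kb upstream of Egr1 (chr18:34855148-34856626), which holds the PU.1 motif, was not lower, with mean levels of 67.1 (WT) and 83.8 CPM (URE) in LSK, 64.1 (WT) and 90.1 CPM (URE) in GMP, and log2 fold changes of 0.32 ± 0.09 and 0.49 ± 0.09 (edgeR adjusted p = 0.00509 and 0.000157).

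Egr2, the other Egr factor of the set, had no region called between genotypes by edgeR as described or by DESeq2. Its promoter region (chr10:67536711-67537956), which holds 2 CArG boxes, read 58, 58.5 and 58 CPM in WT-LSK against 79.3, 70.8 and 64.5 for URE-LSK. These values did not overlap, while those of WT-GMP (56, 42.7 and 47.3 CPM) overlapped those of URE-GMP (55.7, 56.7 and 53.1 CPM). The log2 fold changes were 0.30 ± 0.09 in LSK and 0.18 ± 0.09 in GMP (edgeR adjusted p = 0.0133 and 0.104), the GMP value turning to -0.03 with loess offsets. The region 1.5 kb upstream of the nearest start site in the basic annotation (chr10:67536007-67536401) lies inside the annotated span of the gene (67535475-67542188). It rose in LSK from 11.2 ± 0.882 (SD, n = 3) to 15.7 ± 0.664 CPM (edgeR adjusted p = 0.0014), below the 2-fold threshold. Of the Egr2 regions, 1 was called in the step from LSK to GMP and is named for that: 18.8 kb upstream (chr10:67518832-67519079), where mean accessibility was 0.182 CPM in WT-LSK and 2.22 in WT-GMP, with log2 fold changes of 3.61 in WT and 3.66 in URE. Its genotype difference in GMP (-0.93 ± 0.39, edgeR adjusted p = 0.0511) was called lower in 4 of 21 alternatives, among them with library size only (-1.05) and without URE-GMP replicate 2 (-1.34) or WT-GMP replicate 3 (-1.09).

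Nab2 shares its promoter region with the divergent gene Nemp1. That region (chr10:127666315-127669037) read 118.6, 108.4 and 111.8 CPM in WT-LSK against 157.3, 148.6 and 117.2 for URE-LSK. WT-GMP had 83.2, 79.7 and 86.8 CPM and URE-GMP 122.6, 119.5 and 116.5. In GMP every URE library was above every WT library, and in LSK 1 of the 3 was not. At this promoter the log2 fold changes were 0.32 ± 0.09 in LSK and 0.52 ± 0.09 in GMP (edgeR adjusted p = 0.00545 and 9.6e-05), the LSK value turning to -0.011 with loess offsets.

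Downstream of Nab2, a region 8.2 kb from its start site and in a coding exon (chr10:127658133-127658434) had mean levels of 3.2 ± 0.275 CPM in WT-LSK against 1.56 ± 0.269 for URE-LSK, and of 1.85 ± 0.502 against 0.901 ± 0.134 CPM in GMP. The genotypes did not overlap in either cell type. Its log2 fold changes of -1.04 ± 0.24 and -1.05 ± 0.25 (edgeR adjusted p = 0.00157 and 0.00196) lay so near the threshold that either call was lost in 6 of 21 alternatives, including without URE-LSK replicate 2 (-0.91), URE-GMP replicate 3 (-0.94) or WT-GMP replicate 3 (-0.80).

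The largest gain among the 76 regions in GMP lay 18.6 kb downstream of the Nab2 start site, in a coding exon whose nearest start site is that of Stat6 (chr10:127647725-127647985). WT-GMP libraries read 0.711, 0.65 and 0.207 CPM and URE-GMP libraries 3.81, 3.26 and 3.56, with no overlap (log2 fold change 2.80 ± 0.46, edgeR adjusted p = 8.48e-05). In LSK it held 6 counts or fewer in each WT library and 0.0952, 0.335 and 0.449 CPM in URE, and these groups overlapped. The LSK call (log2 fold change 1.85 ± 0.73, edgeR adjusted p = 0.0397) was lost in 8 of 20 alternatives. These include leaving out URE-LSK replicate 2 (1.77) or 3 (1.36), WT-LSK replicate 2 (1.42) or 3 (1.57), URE-GMP replicate 1 (1.85) and WT-GMP replicate 1 (1.80) or 2 (1.79).

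Klf2 had a pair of regions whose genotype difference was present in LSK and not detected in GMP. They flank the promoter, 1.1 kb upstream (chr8:72317620-72317961, with the PU.1 motif shown above) and 3.1 kb downstream (chr8:72322152-72322964). The downstream region read 19.9, 22.2 and 19.9 CPM in WT-LSK against 3.78, 6.45 and 4.68 for URE-LSK, and 36.4, 37.2 and 33.1 CPM in WT-GMP against 35.2, 38.5 and 28.2 for URE-GMP. The upstream region read 4.38, 4.65 and 4.4 CPM in WT-LSK against 0.785, 1.48 and 1.07 for URE-LSK, and 7.66, 9.21 and 7.77 CPM in WT-GMP against 9.3, 9.7 and 7.73 for URE-GMP. In LSK the genotypes were far apart in both regions, and in GMP they overlapped.

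For the downstream Klf2 region the log2 fold change was -2.06 ± 0.16 in LSK and -0.07 ± 0.15 in GMP (edgeR adjusted p = 4.55e-08 and 0.718), and for the upstream one -2.02 ± 0.22 and 0.12 ± 0.19 (edgeR adjusted p = 9.79e-07 and 0.612). The GMP values changed sign under some scalings, to 0.077 downstream with GC content offsets and -0.0056 upstream with library size only. The interaction was 1.99 ± 0.22 and 2.13 ± 0.29 on the log2 scale (edgeR adjusted p = 4.02e-05 and 0.00018) and was called in 21 of 21 alternatives for either region.

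The Klf2 promoter between them (chr8:72318634-72319810) had mean levels of 58.1 ± 6.79 (WT) and 64.8 ± 5.85 CPM (URE) in LSK, and of 52.1 ± 1.14 (WT) and 67.3 ± 4.08 CPM (URE) in GMP. In LSK its log2 fold change of 0.16 ± 0.09 did not pass the test (edgeR adjusted p = 0.142) and turned to -0.1 with loess offsets and -0.12 with GC content offsets. In GMP it was 0.37 ± 0.09 (edgeR adjusted p = 0.0021). A weak region 12.1 kb downstream (chr8:72331170-72331433) rose in LSK from 0.924 ± 0.119 to 2.28 ± 0.733 CPM (log2 fold change 1.31 ± 0.27, edgeR adjusted p = 0.000673), and its GMP value of 0.33 ± 0.25 did not pass the test (adjusted p = 0.259).

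**Figure D2:**
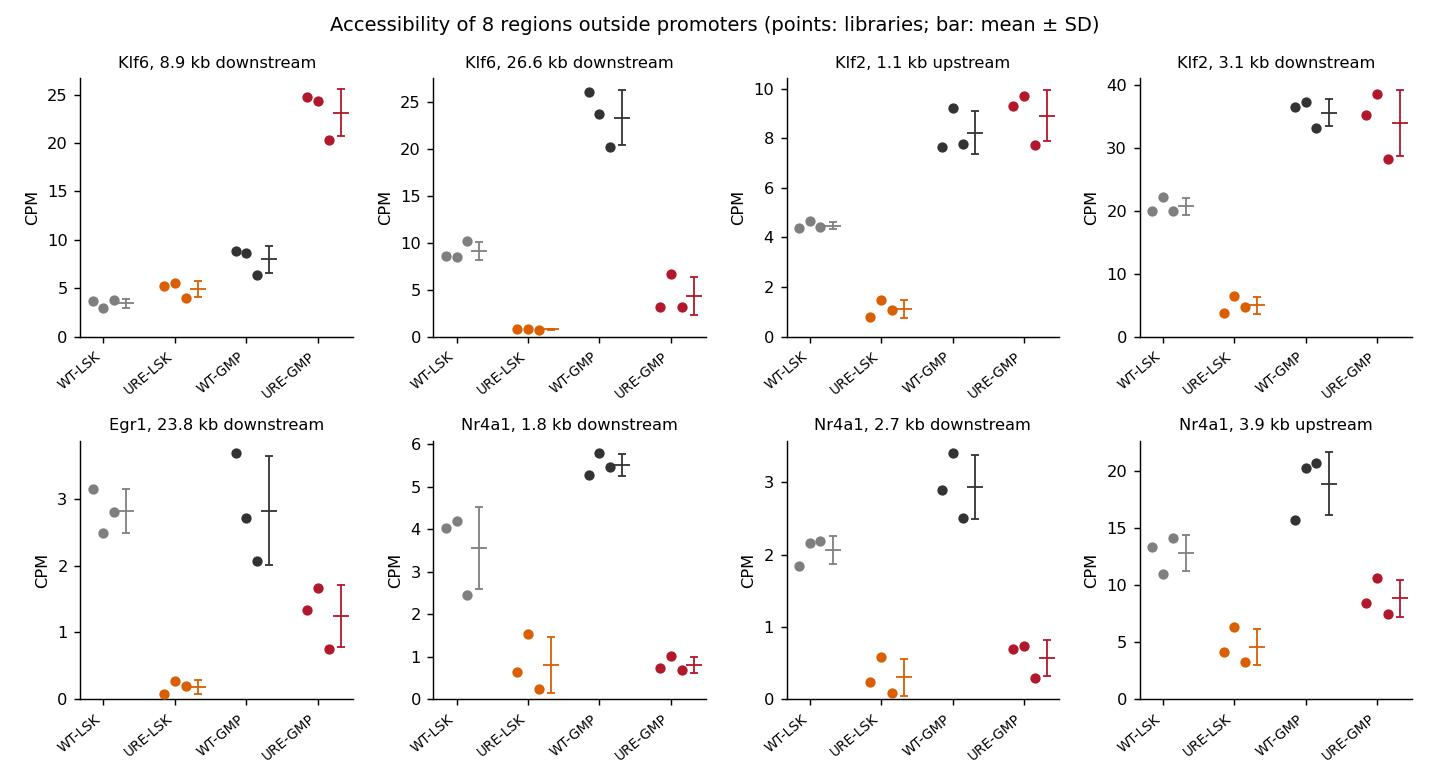
CPM (vertical axis, from 0) in the 12 libraries for 8 regions outside promoters, as points by group with the mean and SD beside them. The Klf2 regions are low in the 3 URE-LSK libraries and overlap between genotypes in GMP, the Klf6 region 26.6 kb downstream and the 3 Nr4a1 regions are lower in URE in both cell types, and the Klf6 region 8.9 kb downstream is highest in the 3 URE-GMP libraries.

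Klf4 had no region called between genotypes by edgeR as described or by DESeq2, and with loess offsets its region chr4:55526514-55526724 was called higher in LSK (1.22, against 0.35 ± 0.32 without them). Its promoter (chr4:55532172-55533205) read 44.5, 45.1 and 42.4 CPM in WT-LSK against 62.1, 64.5 and 51.5 for URE-LSK, without overlap, and 43.3, 47.8 and 45.8 CPM in WT-GMP against 55.6, 52.3 and 46.8 for URE-GMP, with overlap. For the Klf4 promoter the log2 fold changes were 0.43 ± 0.09 in LSK and 0.18 ± 0.09 in GMP (edgeR adjusted p = 0.000797 and 0.107), the GMP value turning to -0.03 with loess offsets. The region with the most counts outside its promoter, 17.2 kb downstream (chr4:55514694-55515221), had mean levels of 22 ± 2.14 (WT) and 24.6 ± 0.634 CPM (URE) in LSK, and of 16.5 ± 1.11 (WT) and 17.6 ± 1.22 CPM (URE) in GMP. Neither of its genotype differences passed the test (0.16 ± 0.10 and 0.09 ± 0.10, edgeR adjusted p = 0.188 and 0.46), and both had the other sign with GC content offsets (-0.00079 and -0.052).

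Klf6 had regions that moved in opposite directions. The region 26.6 kb downstream, with the purine-rich stretch shown above (chr13:5888088-5889065), read 8.55, 8.49 and 10.2 CPM in WT-LSK against 0.761, 0.782 and 0.726 for URE-LSK. In GMP the WT libraries read 26, 23.7 and 20.2 CPM and the URE libraries 3.14, 6.66 and 3.1. Every URE library was far below every WT library of its cell type, with URE-GMP replicate 2 above the other two of its group. Its log2 fold changes were -3.58 ± 0.28 in LSK and -2.42 ± 0.24 in GMP (edgeR adjusted p = 4.46e-08 and 7.2e-07).

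The interaction at this Klf6 region was 1.16 ± 0.36 (edgeR adjusted p = 0.0382) and was lost in 7 of 21 alternatives. The value was 0.69 without URE-GMP replicate 2. Leaving out URE-LSK replicate 1 (1.17), 2 (1.18) or 3 (1.13) or WT-LSK replicate 3 (1.11) kept its size but not its adjusted p, and with GC content offsets it was 0.99.

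Around the 3′ end of Klf6, 3 regions gained accessibility in URE-GMP. The one with the most counts lay 8.9 kb downstream of the start site (chr13:5870365-5870982). Its edge overlapped an untranslated exon, and most of it lay past the annotated end of the gene (5870394). It read 8.87, 8.67 and 6.38 CPM in WT-GMP against 24.7, 24.3 and 20.3 for URE-GMP, and 3.67, 2.9 and 3.74 CPM in WT-LSK against 5.23, 5.55 and 3.97 for URE-LSK. The genotypes were apart in both cell types, by more in GMP. The log2 fold changes were 1.54 ± 0.18 in GMP and 0.50 ± 0.18 in LSK (edgeR adjusted p = 2.49e-06 and 0.0283). The interaction of 1.03 ± 0.25 (edgeR adjusted p = 0.011) stood just past the threshold and was lost in 6 of 21 alternatives, among them with GC content offsets (0.88) and without URE-GMP replicate 1 (0.98) or 2 (0.99), URE-LSK replicate 3 (0.90) or WT-GMP replicate 3 (0.97).

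Next to it, 8.5 kb downstream (chr13:5869959-5870206), accessibility rose from 1.16 ± 0.722 to 4.87 ± 1.15 CPM in GMP (log2 fold change 2.14 ± 0.45, edgeR adjusted p = 0.000713). The region 12.2 kb downstream (chr13:5873732-5873995), outside the gene, rose from 3.09 ± 1.37 to 6.51 ± 1.11 CPM in GMP (1.10 ± 0.34, edgeR adjusted p = 0.0104), a call lost with library size only (0.98) and without WT-GMP replicate 3 (0.79). In LSK its WT libraries held 6 counts or fewer, and its call as higher there was lost without URE-LSK replicate 3 (1.51). A weak region 10.9 kb upstream (chr13:5850334-5850542) was called lower in both cell types (-1.16 ± 0.30 and -1.01 ± 0.29, edgeR adjusted p = 0.00415 and 0.00752). The LSK call was lost in 4 of 21 alternatives, among them with loess offsets (-0.47) or GC content offsets (-0.77) and without WT-LSK replicate 3 (-0.94). The GMP call was lost in 8 of 21, among them with loess offsets (-0.42), GC content offsets (-0.72), RLE size factors (-0.95) or DESeq2 (-0.96) and without URE-GMP replicate 1 (-0.95) or 3 (-0.94) or WT-GMP replicate 1 (-0.99).

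The Klf6 promoter (chr13:5860654-5861758) had mean levels of 67.8 ± 4.35 (WT) and 78.8 ± 3.56 CPM (URE) in LSK, and of 71.6 ± 5.09 (WT) and 87.8 ± 2.6 CPM (URE) in GMP, with no overlap between genotypes. Its log2 fold changes were 0.22 ± 0.07 and 0.29 ± 0.07 (edgeR adjusted p = 0.0176 and 0.00236), the LSK value turning to -0.067 with loess offsets. The region 15.5 kb upstream (chr13:5845178-5846007) rose in LSK from 16.5 ± 1.01 to 26.8 ± 1.86 CPM and in GMP from 16.4 ± 2.01 to 21.5 ± 0.414 CPM (edgeR adjusted p = 4.43e-05 and 0.00453), short of the 2-fold threshold except in LSK with GC content offsets (1.03).

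Nr4a1 has an upstream and a downstream start site. Of its 21 regions, 6, all before or between these sites, were called lower in LSK, and 4 of these also in GMP. Over all regions 23.9% were called lower in LSK and 24.1% in GMP. The one with the most counts lies in an intron 3.9 kb before the downstream start site (chr15:101262482-101262979) and read 13.3, 11 and 14.1 CPM in WT-LSK against 4.12, 6.34 and 3.29 for URE-LSK, and 15.7, 20.3 and 20.7 CPM in WT-GMP against 8.46, 10.6 and 7.46 for URE-GMP. The genotypes did not overlap in either cell type. The log2 fold changes were -1.49 ± 0.22 in LSK and -1.10 ± 0.21 in GMP (edgeR adjusted p = 2.33e-05 and 0.000296). The GMP call was lost without URE-GMP replicate 3 (-0.99) and with glmTreat.

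In the intron behind the upstream start site, the region 1.8 kb into Nr4a1 (chr15:101256024-101256439) read 4.04, 4.2 and 2.45 CPM in WT-LSK against 0.642, 1.54 and 0.235 for URE-LSK, and 5.27, 5.79 and 5.46 CPM in WT-GMP against 0.732, 1.02 and 0.678 for URE-GMP. The highest URE library was below the lowest WT library in both cell types. It fell by 2.18 ± 0.42 on the log2 scale in LSK and by 2.75 ± 0.41 in GMP (edgeR adjusted p = 0.000348 and 3.04e-05). The neighbouring region 2.7 kb into the gene (chr15:101256924-101257158), with 2.06 ± 0.197 CPM in WT-LSK and 2.93 ± 0.445 in WT-GMP, fell by 2.82 ± 0.45 and 2.34 ± 0.40 (edgeR adjusted p = 6.35e-05 and 0.000124).

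The region 1.3 kb before the upstream start site, whose PU.1 motif is shown above (chr15:101252606-101252949), read 3.57, 3.51 and 2.01 CPM in WT-LSK against 0.523, 0.837 and 0.256 for URE-LSK, and 7.03, 8.81 and 5.37 CPM in WT-GMP against 2.28, 4.27 and 0.945 for URE-GMP. No URE value reached a WT value of its cell type, although the URE-GMP libraries were widely spread. Its log2 fold changes were -2.51 ± 0.49 and -1.48 ± 0.41 (edgeR adjusted p = 0.000403 and 0.00547). The regions 5.9 kb upstream (chr15:101247964-101248338) and 4.9 kb into the gene (chr15:101259130-101259517) were called lower in LSK (-2.27 ± 0.39 and -1.38 ± 0.36, edgeR adjusted p = 0.000121 and 0.00426) and not in GMP (-0.93 ± 0.34 and -0.53 ± 0.31, edgeR adjusted p = 0.0265 and 0.152). The interaction did not pass the test for either of them (edgeR adjusted p = 0.0879 and 0.247). For the region 5.9 kb upstream the GMP call was gained in 5 of 22 alternatives, among them with library size only (-1.06), with the replicate block (-1.01) and without URE-GMP replicate 2 (-1.31) or WT-GMP replicate 1 (-1.08). Its interaction was called with the replicate block (1.33), with block and GC content offsets together (1.23) and without URE-LSK replicate 2 (2.03).

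The promoter at the downstream start site of Nr4a1 (chr15:101266265-101267300) had mean levels of 36.7 ± 2.64 (WT) and 42.5 ± 12.8 CPM (URE) in LSK, and of 28.3 ± 1.04 (WT) and 32.8 ± 3.87 CPM (URE) in GMP, and neither genotype difference passed the test (edgeR adjusted p = 0.284 and 0.274). The promoter at the upstream start site (chr15:101253766-101254435) was higher in URE without reaching 2-fold. Its mean levels were 15.9 ± 1.98 (WT) and 24.9 ± 8.79 CPM (URE) in LSK, and 8.8 ± 1.01 and 13.3 ± 1.93 CPM in GMP. The log2 fold changes were 0.64 ± 0.21 and 0.59 ± 0.22 (edgeR adjusted p = 0.0166 and 0.0268). The genotypes overlapped in LSK and not in GMP. The region 7.1 kb before the upstream start site (chr15:101246118-101247126) was higher in URE without reaching 2-fold, at 56.1 ± 2.76 against 69.9 ± 8.4 CPM in LSK and 49.3 ± 1.44 against 68 ± 2.32 CPM in GMP (edgeR adjusted p = 0.00416 and 0.000173).

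Id2 had no region called between genotypes by edgeR as described or by DESeq2, and with GC content offsets its region chr12:25095037-25095384 was called higher in LSK (1.0, against 0.66 ± 0.23 without them). Its promoter (chr12:25095822-25096543) read 38.8, 38.6 and 38.3 CPM in WT-LSK against 49, 49.3 and 41 for URE-LSK, and 29.8, 31.6 and 34.4 CPM in WT-GMP against 41.1, 41.4 and 41.8 for URE-GMP. The genotypes did not overlap, and the log2 fold changes were 0.27 ± 0.09 in LSK and 0.37 ± 0.09 in GMP (edgeR adjusted p = 0.0144 and 0.0014). The region 1.6 kb upstream (chr12:25098765-25099069) rose in LSK from 8.55 ± 1.44 to 13.2 ± 2.4 CPM (edgeR adjusted p = 0.0154), while in GMP its means were 10.4 ± 2.75 and 11.2 ± 1.74 CPM (adjusted p = 0.639, with the sign turning to -0.031 under GC content offsets).

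The Id2 region 3.6 kb upstream that holds the PU.1 motif (chr12:25100698-25101593) fell in GMP from 7.54 ± 1.71 to 4.16 ± 0.612 CPM (log2 fold change -0.85 ± 0.18, edgeR adjusted p = 0.000924). In LSK it had 7.0 ± 0.562 CPM in WT and 5.85 ± 0.218 in URE (-0.26 ± 0.18, edgeR adjusted p = 0.237). Of the 6 regions with GAGGAAGT, 3 were called lower in LSK and 2 in GMP, and of the 70 without it 11 and 7. Over the whole table, 51.9% of regions with the motif were called lower in LSK and 47.2% in GMP, and of those without it 20.7% and 21.3%. The RUNX motif AACCACA was present in 3 of the 14 lowered regions and 17.3% of all regions, and the AP-1 motif TGANTCA in 2 of the 14 and 15.1% of all regions, both searched on either strand. A match states only that the letters occur in the region.

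**Figure D3:**
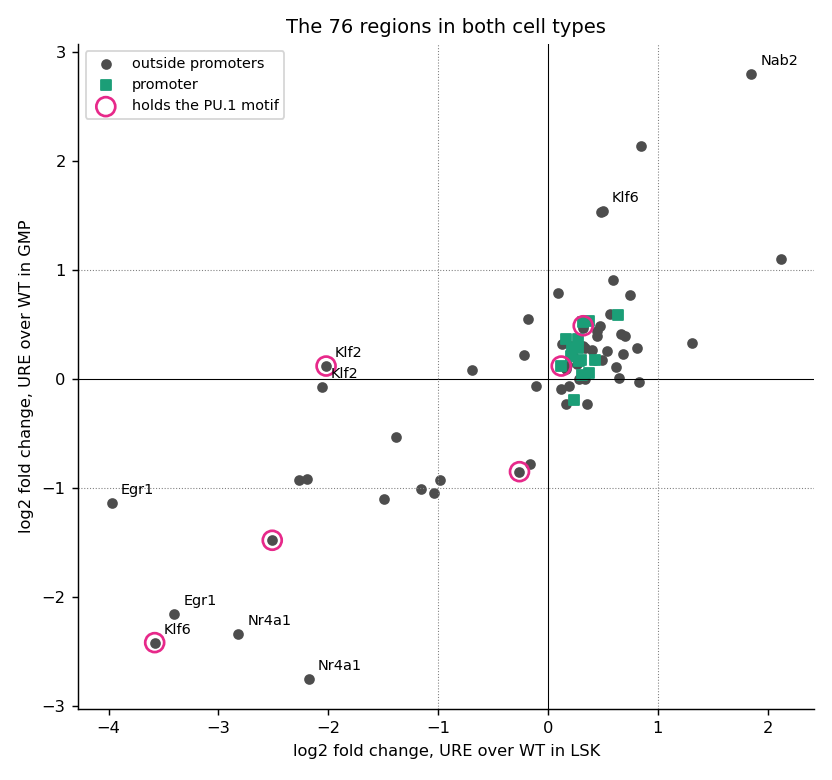
Log2 fold change of URE over WT in GMP (vertical axis) against that in LSK (horizontal axis) for the 76 regions, with promoter regions as squares and regions with the PU.1 motif ringed. The promoter squares lie together near 0 on both axes, 9 regions are called lower in both cell types, and the Klf2 pair lies near -2 in LSK and near 0 in GMP.

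The next question was how accessibility at these genes changed from LSK to GMP. These comparisons use the same libraries as the genotype comparisons, so the values are only set side by side. In WT, 11 of the 76 regions were higher in GMP and 10 lower, where 21.0% of all regions were higher and 16.8% lower. In URE, 13 were higher and 10 lower, where the whole table had 27.6% higher and 21.6% lower. Of these, 9 were higher and 8 lower in both genotypes. The share of all regions called in both genotypes was not computed.

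Klf6 had 5 regions higher in GMP in either genotype, of which the WT call 8.5 kb downstream (log2 fold change 1.38) was lost without WT-GMP replicate 1 (0.85) or 2 (1.23) or WT-LSK replicate 2 (1.0) or 3 (1.37). The one 14.0 kb downstream (chr13:5875442-5875874) had mean levels of 2.33 CPM in WT-LSK and 9.55 in WT-GMP, and of 2.07 and 14 CPM in URE (log2 fold changes 2.03 ± 0.24 and 2.76 ± 0.25, edgeR adjusted p = 5.29e-06 and 9.88e-08). Id2 had 2 regions lower in GMP in either genotype, and the one 11.7 kb upstream (chr12:25108889-25109183) went from 2.34 to 0.581 CPM in WT and from 2.62 to 0.524 CPM in URE (-1.93 ± 0.35 and -2.32 ± 0.34, edgeR adjusted p = 0.000198 and 1.7e-05). In Nr4a1, the region 4.0 kb into the gene (chr15:101258266-101258953) went from 12.4 to 2.32 CPM in WT and from 13.2 to 3.97 CPM in URE (-2.44 ± 0.23 and -1.73 ± 0.21, edgeR adjusted p = 5.03e-07 and 2.51e-06).

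Higher in GMP by the threshold in URE but not in WT were 4 regions, with no matching share over all regions computed. They were the Klf2 pair (log2 fold changes 3.01 and 2.78 in URE, 0.88 and 0.79 in WT), the Egr1 region 23.8 kb downstream (2.81 and -0.02) and the Nr4a1 region 5.9 kb upstream (2.13 and 0.80). Over the 76 regions, 5 had a positive interaction call, meaning a genotype effect that was higher in GMP than in LSK, and none had a negative one, where 8.96% of all regions were positive and 5.03% negative. DESeq2 called 5 and 0, and at an unadjusted p under 0.05 edgeR gave 11 and 5. With GC content offsets 3 were positive and 1 negative, the latter being the Klf2 region 12.1 kb downstream (-1.10). Of the interaction calls over all regions, 35.9% were negative, against 46.5% with GC content offsets. The 5 positive calls without these offsets were the Klf2 pair, the Klf6 regions 8.9 and 26.6 kb downstream and the Egr1 region 23.8 kb downstream. Without URE-GMP replicate 2 the count was 3, both Klf6 regions being lost (0.99 and 0.69).

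**Figure D4:**
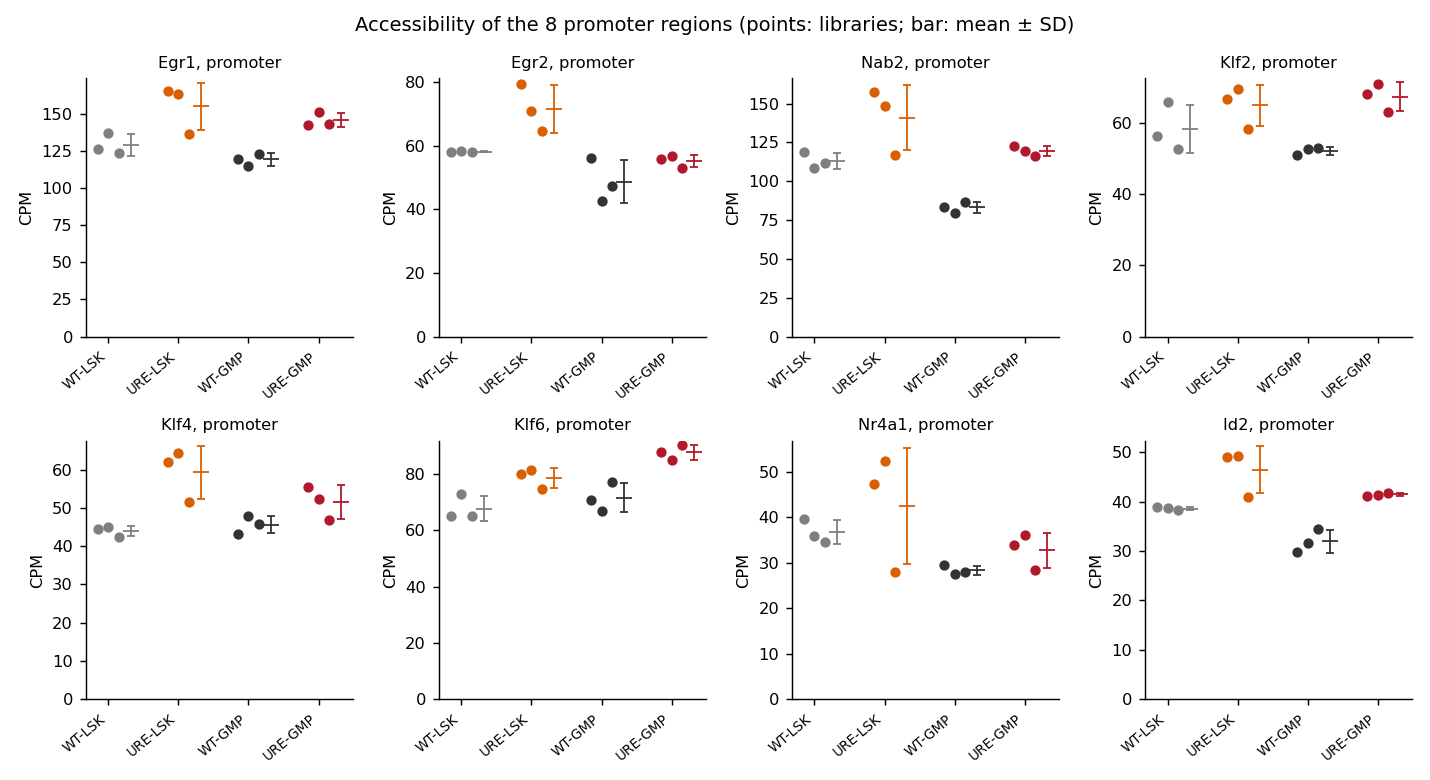
CPM (vertical axis, from 0) of the promoter region of each of the 8 genes in the 12 libraries, as points by group with the mean and SD beside them. Group means are higher in URE than in WT of the same cell type for all 8, from 28.3 and 32.8 CPM at Nr4a1 in GMP to 129.3 and 155.4 CPM at Egr1 in LSK, no promoter is 2-fold apart, and with loess offsets the log2 fold change had the other sign in at least 1 cell type at Egr1, Egr2, Nab2, Klf2, Klf4 and Klf6.

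Related genes were described in the same way from a list of 24: Egr3, Egr4 and Nab1, the serum response factor gene Srf and its partners Elk1, Elk3 and Elk4, 12 other Klf genes, Nr4a2 and Nr4a3, and Id1, Id3 and Id4. Of their 225 regions, 37 were lower and 22 higher in LSK (16.4% and 9.78%), with a median log2 fold change of 0.17, and 39 were lower and 26 higher in GMP (17.3% and 11.6%), with a median of 0.20. Over all regions 23.9% were lower and 13.6% higher in LSK, and 24.1% and 15.6% in GMP. With loess offsets 31 were lower and 34 higher in LSK and 33 and 36 in GMP, and with GC content offsets 32 and 33 in LSK and 38 and 32 in GMP. The lower share of the calls over all regions fell as well. It was 47.5% in LSK and 45.5% in GMP with loess offsets, and 52.2% and 54.9% with GC content offsets. In the step from LSK to GMP 41 were higher and 24 lower in WT (18.2% and 10.7%), and 56 higher and 38 lower in URE (24.9% and 16.9%). Over all regions these shares were 21.0% and 16.8% in WT, and 27.6% and 21.6% in URE. An interaction call was positive for 18 (8.0%) and negative for 6 (2.67%), beside 8.96% and 5.03% of all regions. With GC content offsets these counts were 12 and 14. The Klf genes held 121 of the 225 regions, of which 23 were lower and 18 higher in LSK, and 19 lower and 21 higher in GMP.

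By gene, Egr3 had 3 of 13 regions lower in LSK, and 2 lower and 1 higher in GMP. Nab1, the other Nab co-repressor, had 1 lower and 1 higher of 5 in LSK and 2 lower in GMP. Elk3, an ETS partner of serum response factor, had 4 lower and 1 higher of 25 in LSK and 8 lower and 1 higher in GMP. Nr4a3, a nuclear receptor related to Nr4a1, had 1 lower and 1 higher of 11 in each.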

How the data were processed

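Sorted LSK and GMP from wild-type and URE-deleted mice were profiled by ATAC-seq, 3 libraries per group. The authors deposited raw counts per region. The submitters' processing notes name cutadapt, Bowtie2, Genrich, bedtools and featureCounts with GRCm38, and peaks were called per group and merged. Versions, and whether fragments or read ends were counted, are not given in the sources used here. Region starts were taken as 0-based and are printed 1-based. Cell input varied between libraries.

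Counts were tested with edgeR 4.0.16 (limma 3.58.1, R 4.3.3; TMM, 1 coefficient per group over all 12 libraries). CPM were computed here. filterByExpr removed 0 regions, and the biological coefficient of variation was 0.185. Of the 76 member regions, 64 had 10 or more counts in every library. The fit was tested on simulated data in which 200 regions were changed, as many higher as lower. Such data cannot test the scaling where many regions change. The p-values measure the spread between these samples, and counting intervals cover counting error only.

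For each gene, the text names the promoter region, the region with most counts outside promoters, up to 3 called regions with the smallest p, and every region with an interaction call. Other regions were named after their values were seen. The members and lists were chosen with earlier results of these data known. Alternatives were RLE and library-size scaling, loess and GC content offsets, DESeq2 1.42.0, filters, glmTreat, no fold threshold, other windows, the groups compared only, a replicate block, and leaving out each library. Counts of alternatives that lose a call leave out glmTreat and the windows. They include the setting without a filter, which repeats the main fit because the filter removed 0 regions. For genotype and step calls they also include leaving out libraries of groups that are not compared. Of the alternatives, those on related genes were added after seeing the data. Correlations of deviations between same-numbered WT samples of LSK and GMP were 0.181, 0.191 and 0.207, so the numbers may pair these groups. The main fit did not use the numbers, which entered only the alternatives with a replicate block. Whether the numbers mark the same animal is not given in the sources used here.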

Additional observations from a re-analysis of the deposited data

Results flagged for a closer look

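The genotype effect differed between GMP and LSK, tested as the interaction in edgeR's quasi-likelihood fit, in 5 regions. The difference (GMP effect minus LSK effect, log2 scale) was 1.99 for the Klf2 region 3.1 kb downstream (adjusted p = 4.02e-05) and 2.13 for the Klf2 region 1.1 kb upstream (adjusted p = 0.00018). It was 2.82 for the Egr1 region 23.8 kb downstream (adjusted p = 0.00202). For Klf6 it was 1.03 for the region 8.9 kb downstream (edgeR adjusted p = 0.011) and 1.16 for the region 26.6 kb downstream (edgeR adjusted p = 0.0382), and without URE-GMP replicate 2 these were 0.99 and 0.69, neither of them called.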

How the results depend on the processing

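Counts of called member regions moved by over 1.5 times under these settings, against 17 in LSK, 14 in GMP, 21 in the WT step, 23 in the URE step and 5 for the interaction. With a mean CPM of at least 2 they were 10, 7, 12 and 14 for the first 4. With glmTreat they were 11 in LSK, 7 in GMP, 9 in the WT step and 3 for the interaction. This setting tests for a change beyond 2-fold. None of the 11 was higher in URE, and the 7 were 3 higher and 4 lower. Both Klf6 interaction calls were lost under it. So were the LSK calls of the Nr4a1 region 4.9 kb into the gene and the Klf2 region 12.1 kb downstream. In GMP the setting lost the Nr4a1 regions 1.3 and 3.9 kb before a start site and the Egr1 region 23.8 kb downstream. The other genotype calls lost belonged to Nab2, Klf6 and Egr1. With the adjusted p only the counts were 42, 34, 39 and 39, with 27 higher and 15 lower in LSK and 22 and 12 in GMP. Over all 121336 regions the adjusted p only gave 33840 higher and 35056 lower in LSK, and 35940 and 37897 in GMP. With windows of 5 kb, which held 41 regions, they were 9, 8, 11, 14 and 3. With 50 kb, which held 143 regions, they were 43, 40, 43, 57 and 17. The windows and the CPM filter change the number of regions tested, so a moved count need not be a moved share. Leaving out 1 library gave 15 to 18, 10 to 16, 19 to 24, 22 to 27 and 3 to 5. For the related genes (59, 65, 65, 94 and 24), a mean CPM of at least 2 gave 37 in LSK, 40 in GMP and 42 in the WT step, and glmTreat 32 in LSK, 43 in GMP and 3 for the interaction. Leaving out 1 library gave 54 to 59, 61 to 71, 60 to 74, 89 to 97 and 15 to 27, the 15 being without URE-LSK replicate 1.

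With the replicate block the member counts were 17, 16, 21, 23 and 6, and no count moved by over 1.5 times under it. It added calls as lower in GMP for the Egr2 region 18.8 kb upstream (-1.03) and the Nr4a1 region 5.9 kb upstream (-1.01), and the interaction of the latter (1.33). The WT step pairs are described with the processing. Correlations of same-numbered samples for the other comparisons were 0.102, 0.0625 and -0.0616 (LSK), 0.0997, 0.205 and 0.349 (GMP) and 0.0616, 0.273 and 0.113 (URE step). In GMP each sample was closest to its own number, as in the WT step, and in LSK and the URE step not every sample was. WT and URE samples come from different animals, and what a shared number marks between them was not tested. With block and GC content offsets together, members split into 11 lower and 7 higher in LSK, 6 and 6 in GMP, and 4 positive and 2 negative for the interaction, the negative ones being the Klf2 region 12.1 kb downstream (-1.06) and a Nab2 region (-1.04).

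Log2 fold changes that changed sign were these. With loess offsets: Egr1 promoter -0.082 (LSK) and -0.0046 (GMP), Egr1 region 12.8 kb upstream 0.37 (GMP), Egr2 promoter -0.03 (GMP), Nab2 promoter -0.011 (LSK), Klf2 promoter -0.1 (LSK), Klf4 promoter -0.03 (GMP), Klf4 region 17.2 kb downstream -0.025 (GMP) and Klf6 promoter -0.067 (LSK). With GC content offsets, without and with the replicate block: Klf2 promoter -0.12 and -0.12 (LSK), Klf2 region 3.1 kb downstream 0.077 and 0.072 (GMP), Klf4 region -0.052 and -0.048 (GMP) and Id2 region 1.6 kb upstream -0.031 and -0.025 (GMP), and the Klf4 region -0.00079 without it (LSK). With library size only: Klf2 region 1.1 kb upstream -0.0056 and Klf4 region -0.028 (GMP). Leaving out 1 library gave -0.16 to 0.051 for the Klf2 region 3.1 kb downstream and -0.02 to 0.29 for the Id2 region (GMP), the ends with the other sign being without URE-GMP replicate 3 and without WT-GMP replicate 3. The cause was not tested.

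Of the calls over all regions, 63.8% were lower in LSK and 60.6% in GMP, against 47.5% and 45.5% with loess offsets and 52.2% and 54.9% with GC content offsets. Library size only shifted the median log2 fold change of all regions by -0.12 in both genotype comparisons. Regions with few counts in URE-LSK limit the precision of the largest decreases.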
